A study of Mus musculus with 8 samples.

Results

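Lung leukocytes of silica-exposed mice that lack Rag1 and were treated to remove natural killer cells were compared with those of silica-exposed wild-type mice. The comparison uses the 4 silica arrays of a series of 8, chosen by their titles, and runs over 11597 genes of the 12446 with a symbol on the table. The tested mice, called RagKO here, carried the genotype Rag1-/- and were injected with antibody to NK1.1 (300 µg each time), before the exposure and throughout it, to remove natural killer (NK) cells. They were instilled through the nose with 1 mg of crystalline silica in 25 µl of saline per dose, weekly for 4 weeks (RagKO silica, 2 arrays). The wild-type (WT) mice were C57Bl/6, had the same silica and, as far as the labels say, no antibody (WT silica, 2 arrays). RagKO and WT mice given saline alone (2 arrays each) served to ask whether a genotype difference was already there without silica. Their arrays also entered the estimate of spread behind each p-value, and a gene needed a value on them to be tested. All mice were anesthetized with ketamine and were 6 to 8 weeks old, and the labels give no strain background for the RagKO mice. The Rag1 deletion and the NK depletion always came together and cannot be told apart. Arrays of a group are named biological replicates, with no number of mice per array, so a p-value covers the spread among these few arrays and nothing more, and their number limits the precision.

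Crystalline silica is a mineral dust that lung macrophages engulf and cannot degrade, and it injures their lysosomes. It is known for long-lasting lung inflammation and scarring. Rag1 encodes part of the recombinase that assembles antigen receptor genes, so mice without it make no mature T or B cells, while myeloid cells and innate lymphoid cells still develop. NK1.1 is a surface receptor of NK cells in C57Bl/6 mice, and antibody against it removes them. RNA came from lung interstitial leukocytes, the white cells released by collagenase from minced lung and collected on a density gradient. Each value is a log2 ratio of that RNA to a common mouse reference RNA, so levels can be set side by side between groups for a gene, but not between genes. In such bulk samples fewer cells of a type and less RNA per cell cannot be told apart.

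The arrays were checked before the results. The replicate arrays correlated across genes with r = 0.9795 for RagKO silica and 0.985 for WT silica, against 0.7927 to 0.8367 between the groups. The RagKO silica arrays differed from each other in sex-linked transcripts. Xist, the X-inactivation transcript of female cells, read -1.87 and 1.87 in RagKO silica, against 0.54 and 0.23 in WT silica. Eif2s3y, which is Y-linked, read 2.42 and -2.22 in RagKO silica, against 0.34 and 1.05 in WT silica. The part of sex in the results was not tested, and lead counts are given without each array. Rn28s1, a ribosomal RNA gene, had ratios of 0.86 and 0.59 in RagKO silica, against 2.17 and 2.45 in WT silica. The deleted gene gives no check of the labels, since no probe with the symbol Rag1 or Rag2 was analysed here. Lung epithelium markers averaged 2.97 and 2.82 above the reference in RagKO silica, against 2.86 and 3.12 in WT silica. Arg1 read 3.41 and 3.45 on the WT saline arrays, above the 1.08 and 0.65 of WT silica, and Fbp1 read 4.20 and 4.13 against 0.37 and 0.97. Directions across exposures in WT rest on the labels alone.

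A large part of the measured transcriptome differed between the genotypes after silica. Of 11597 genes, 3913 were higher in RagKO silica (33.7% of those tested) and 3057 were lower (26.4%) by limma with Benjamini-Hochberg adjustment at 0.05. Those shares are the background against which each gene group below is read. A difference of at least 2-fold was reached by 1002 of the higher and 840 of the lower genes, and of at least 4-fold by 92 and 150. Beyond 16-fold lay 10 genes, all lower in RagKO silica. The median difference over all genes was 0.07 on the log2 scale, and the median standard error (SE) of a difference was 0.13. The groups did not overlap on the 4 arrays for 79.7% of genes, whether called or not.

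T cell, B cell and NK cell transcripts were lower in RagKO silica. All 8 measured T cell markers fell, with a median difference of -2.24. Cd5, a co-receptor that dampens T cell receptor signals, read -1.95 and -1.87 in RagKO silica, against 2.33 and 2.55 in WT silica. Cd6, a related adhesion receptor, read -1.41 and -1.74 in RagKO silica, against 2.14 and 2.25 in WT silica. Cd8a, the cytotoxic T cell co-receptor, read -0.00 and 0.14 in RagKO silica, against 2.68 and 2.79 in WT silica. Within each group the arrays lay close together and the groups were far apart. The fold differences were 20.43 for Cd5 (SE 0.12 on the log2 scale, adjusted p = 1.05e-08), 13.67 for Cd6 and 6.332 for Cd8a. Cd3d, a subunit of the T cell receptor complex, had a value on the silica arrays but not on every saline array, and was tested apart in a fit over 12049 genes. It read 0.10 and -0.11 in RagKO silica, against 5.31 and 5.35 in WT silica, a difference of -5.33 (SE 0.12, limma adjusted p = 1.41e-08). Probes for Cd3e and Cd4 lay near 0 on every silica array that measured them, from -0.32 to 0.08, so they showed no such gap.

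Of 9 measured B cell markers, 8 fell with a median over the list of -3.47. Ms4a1, which encodes CD20, read -2.76 and -2.74 in RagKO silica, against 3.67 and 3.55 in WT silica. Pou2af1, a B cell transcriptional coactivator, read -4.15 and -4.09 in RagKO silica, against 1.12 and 0.97 in WT silica. Tnfrsf13c, the receptor for the survival factor BAFF, read -0.45 and -0.61 in RagKO silica, against 3.65 and 3.68 in WT silica. These 3 genes had no overlap, as did 79.7% of all genes, and almost no spread within a group. Cd72, which macrophages and dendritic cells also carry, was the marker that did not pass, with 2.08 and 1.76 in RagKO silica, against 1.88 and 1.87 in WT silica (adjusted p = 0.766). Outside the main gene set, Bank1, a B cell scaffold protein, read 0.18 and 0.31 in RagKO silica, against 3.36 and 3.13 in WT silica, and Cd22, an inhibitory lectin of B cells, 1.19 and 1.04 against 3.53 and 3.40. Of 10 immunoglobulin genes and segments, 9 were lower, with a median of -2.22. Iglv1 read -3.07 and -3.17 in RagKO silica, against 3.06 and 3.01 in WT silica. Segments share sequence, so single segment values are uncertain.

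Antibody secretion genes did not all move the same way. Ighm, the IgM heavy chain, read 2.95 and 2.30 in RagKO silica, against 6.06 and 6.01 in WT silica. Jchain, which joins secreted antibody units, read -2.91 and -2.92 in RagKO silica, against 0.63 and -0.58 in WT silica, so the WT arrays were far apart for it. Xbp1, a transcription factor of secretory cells that many cell types use, went the other way, with 0.51 and 0.61 in RagKO silica, against -0.72 and -0.93 in WT silica. The elongation factor gene Ell2 was also higher, by 1.30. Of the 10 genes of the list 5 fell and 2 rose.

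NK and cytotoxic genes fell in 14 of 15 cases, with a median of -2.44. Their mean log2 ratio was 1.90 and 1.49 in RagKO silica, against 3.82 and 3.86 in WT silica. How complete the NK depletion was, was not tested. Klra7, a Ly49 receptor, read 0.93 and 0.46 in RagKO silica, against 4.33 and 4.52 in WT silica. Klrc1, the inhibitory receptor NKG2A, read 1.10 and 0.38 in RagKO silica, against 3.76 and 3.81 in WT silica. Klrd1, its partner CD94, read 3.16 and 3.02 in RagKO silica, against 5.81 and 5.70 in WT silica. Klra genes share sequence, which makes the values of single members uncertain. Prf1, the pore-forming perforin, was measured on the silica arrays and read 0.94 and 0.24 in RagKO silica, against 3.35 and 3.54 in WT silica. Cd244a did not pass, with 3.37 and 3.42 in RagKO silica, against 3.46 and 3.25 in WT silica. After saline 14 of the 15 were lower too, with a median of -0.89, against 29.2% over all genes. For 8 of the 15 genes the genotype difference was more negative after silica than after saline, against 12.3% over all genes. Leaving out either RagKO silica array left 8 T cell, 8 B cell and 14 NK genes called lower, as in the fit on all arrays.

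**Figure D1:**
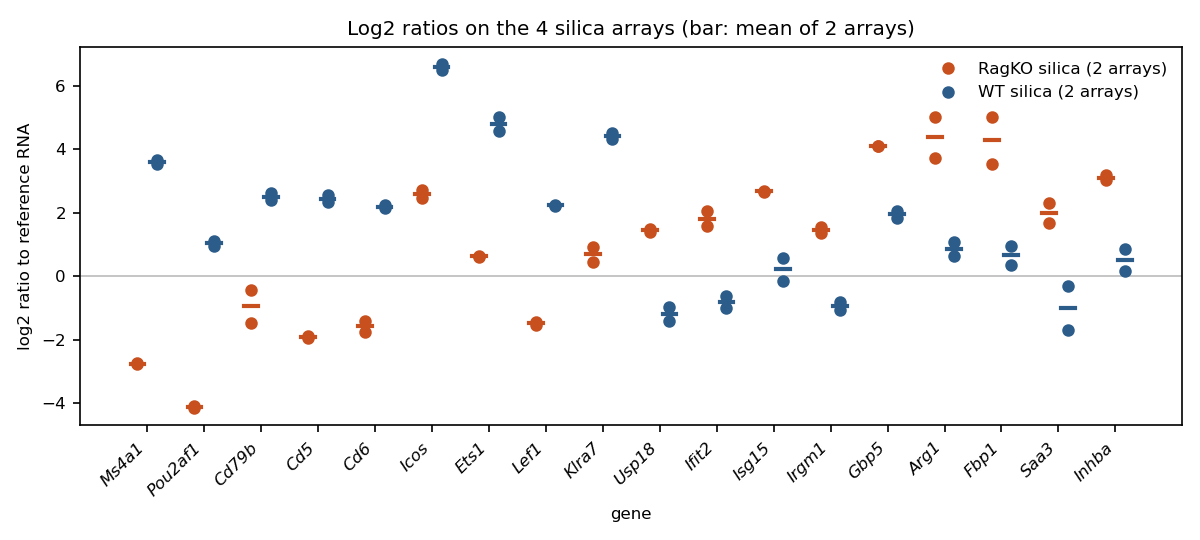
Log2 ratio to the reference RNA (vertical axis) of 18 genes on the RagKO silica (left of each pair, orange) and WT silica arrays (right, blue), with dots for arrays and bars for means of 2 arrays. The 9 lymphocyte genes on the left lie lower in RagKO silica, and the 9 genes from Usp18 to Inhba lie higher. The groups did not overlap for any of the 18, as for 79.7% of all genes. Lack of overlap was a condition for picking the largest rises and falls, many of which are shown.

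The transcription factors and signalling proteins of lymphocytes were lower as well. Of 21 lymphocyte transcription factors 15 fell and 1 rose. Ets1, needed for lymphocyte development and survival, read 0.61 and 0.65 in RagKO silica, against 4.58 and 5.03 in WT silica. Bach2, a repressor that keeps lymphocytes from terminal differentiation, read -0.33 and -0.51 in RagKO silica, against 3.32 and 3.63 in WT silica. Lef1, a Wnt-pathway factor of naive T cells, read -1.52 and -1.44 in RagKO silica, against 2.25 and 2.22 in WT silica. The factor that rose was Rora (0.35), which T cells and innate lymphoid cells use, and without WT silica array 2 it did not pass (0.32, adjusted p = 0.0588). Gata3, used by helper T cells and group 2 innate lymphoid cells, fell by 1.28. Among 27 genes of antigen receptor signalling 18 fell, among them Cd79b (-3.47), the kinase gene Txk (-2.60) and Pik3cd (-2.20). Of 21 trafficking and survival genes 17 fell. The GTPase gene Gimap6 read 2.31 and 2.33 in RagKO silica, against 5.42 and 5.55 in WT silica, and S1pr1, the receptor that guides lymphocyte exit from tissues, 1.89 and 2.56 against 4.07 and 4.40. The 2 that rose, named after their values were seen, were the BAFF gene Tnfsf13b (1.57), which myeloid cells make, and the integrin gene Itga4 (0.76).

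Interferon-stimulated genes were higher in RagKO silica. Interferons are secreted antiviral proteins that act through JAK kinases and STAT factors, and type I interferons switch on a shared set of genes through a promoter element. Of 45 measured members of that set 37 rose and 3 fell, with a median of 1.02, against 33.7% higher over all genes. Usp18, which trims the ubiquitin-like protein ISG15 from its targets and damps the receptor, read 1.50 and 1.39 in RagKO silica, against -0.96 and -1.42 in WT silica. Isg15 itself read 2.68 and 2.70 in RagKO silica, against 0.58 and -0.13 in WT silica. Ifit2, which binds viral RNA, read 2.05 and 1.58 in RagKO silica, against -1.00 and -0.61 in WT silica. Every RagKO silica array lay above every WT silica array for these 3, and 79.7% of all genes had no overlap either way. The fold differences were 6.21 for Usp18 (SE 0.15 on the log2 scale, limma adjusted p = 4.93e-07), 5.53 for Isg15 and 6.145 for Ifit2. Ifi207, of the family that binds DNA, read 2.11 and 2.10 in RagKO silica, against -1.06 and -1.62 in WT silica. Ifit1 read 2.38 and 2.15 in RagKO silica, against 2.28 and 1.56 in WT silica, and did not pass (adjusted p = 0.172), nor did the nucleic acid sensor gene Zbp1 (0.29), which passed without RagKO silica array 1 (0.57, adjusted p = 0.0118). The 3 that fell, named after their values were seen, were Ifitm1 (-0.92), Adar (-0.54) and Sp110 (-0.46), and the probes of Adar disagreed, from -1.29 to 0.20. Without each silica array in turn, 34 to 38 of the 45 rose and 1 to 4 fell.

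The promoters of these genes are shown because their members moved together. Windows of 300 bases (250 before to 50 after the start) were taken from RefSeq, build GRCm38.p6, and matched 34 of the 45 genes. The motif searched was GAAANNGAAA, the core of the interferon-stimulated response element, on both strands, with overlaps between matches allowed. It was found in 16 of the 34 (47.1%), against 3.83% of the 9347 tested genes with a window and 3.99% of all 27025 genes with one. Among the interferon-gamma inducible genes described next it was found in 9 of 15. Stretches upstream of the start with the matches in capitals, each on its gene's own strand, are these.
Isg15, chr4:156200855-156200916, minus strand: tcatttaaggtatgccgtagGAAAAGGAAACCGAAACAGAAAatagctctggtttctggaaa
Bst2, chr8:71537567-71537622, minus strand: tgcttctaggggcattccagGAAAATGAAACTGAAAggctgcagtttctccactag
Ifi207, chr1:173741821-173741870, minus strand: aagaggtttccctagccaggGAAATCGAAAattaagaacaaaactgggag
Ifit3, chr19:34583353-34583436, plus strand: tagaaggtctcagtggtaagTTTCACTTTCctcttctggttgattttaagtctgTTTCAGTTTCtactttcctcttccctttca
Ifit1, chr19:34640765-34640833, plus strand: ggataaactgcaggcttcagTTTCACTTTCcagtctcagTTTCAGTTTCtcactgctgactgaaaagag
Irgm1, chr11:48871421-48871470, minus strand: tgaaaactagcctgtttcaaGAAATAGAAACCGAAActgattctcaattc
Gbp5, chr3:142496749-142496798, plus strand: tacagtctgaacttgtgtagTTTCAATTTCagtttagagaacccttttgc
Isg15 holds 3 overlapping matches 57 to 78 bases before the start, Bst2 and Irgm1 hold 2 overlapping ones, and Ifit3 and Ifit1 hold 2 separate ones in reverse. Bst2, the tetherin gene, was higher by 2.06 and Ifit3, named after its value was seen, by 1.33. Ifit1 (0.35) did not pass on all arrays, but did without WT silica array 1 (0.71, adjusted p = 0.0059). A match is a description of letters, not a shown binding site. The element is known for interferon-stimulated genes, so its share in these lists does not bear on their rises.

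Targets of interferon-gamma, the lymphocyte interferon, were higher too, while the interferon-gamma transcript was lower. Ifng read 2.68 and 1.74 in RagKO silica, against 3.90 and 4.26 in WT silica, a 3.662-fold lower level (SE 0.25 on the log2 scale, adjusted p = 0.000105). Of 22 inducible GTPases and other targets 13 rose and 1 fell. Gbp5, a guanylate-binding protein that assembles on pathogens, read 4.11 and 4.12 in RagKO silica, against 2.07 and 1.84 in WT silica. Irgm1, a GTPase of autophagy and vacuole defence, read 1.56 and 1.38 in RagKO silica, against -0.80 and -1.05 in WT silica. Gbp3 was higher by 1.79 and Gbp2 by 1.06. The member that fell was Ciita, the master regulator of MHC class II genes (-1.15). For 19 of these 22 genes the genotype difference was more positive after silica than after saline, against 11% over all genes. After saline 15 of the 22 had been lower in RagKO and 3 higher, against 29.2% and 37% over all genes. Type I interferon itself was measured by Ifnb1 on the silica arrays, at 2.76 and 2.51 in RagKO silica, against 2.53 and 1.81 in WT silica, and did not pass (0.47, limma adjusted p = 0.0863).

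Upstream components of interferon signalling did not share the direction of their targets after silica. Of 27 signalling genes 14 fell and 7 rose, and without WT silica array 2 only 3 rose and without RagKO silica array 1 only 4. After saline 19 of the 27 had been lower in RagKO and 0 higher, against 29.2% and 37% over all genes. The genotype difference was more positive after silica for 13 and more negative for 2, against 11% and 12.3% over all genes. Jak1, the kinase of interferon receptors, read 0.05 and 0.10 in RagKO silica, against 1.59 and 1.63 in WT silica. Stat2, a subunit of the type I interferon transcription factor, read 2.70 and 2.21 in RagKO silica, against 3.54 and 3.10 in WT silica. Mavs, the adaptor of RNA sensors, was lower by 1.06 on the log2 scale, and Socs3, a feedback inhibitor, by 1.01. Irf8, a factor of myeloid cells, differed by -0.66, and did not pass without WT silica array 1 (-0.61, adjusted p = 0.062) or without RagKO silica array 2 (-0.31, adjusted p = 0.105). Irf7, the factor that amplifies type I interferon, rose by 0.87, with 2.47 and 1.76 in RagKO silica, against 1.52 and 0.98 in WT silica. It no longer passed without WT silica array 2 (adjusted p = 0.0654) or without RagKO silica array 1 (0.0619).

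Monocyte and macrophage markers were measured on the same arrays. Of 22 monocyte and interstitial macrophage markers 9 rose and 2 fell, with a median of 0.32, against 33.7% and 26.4% over all genes. Without WT silica array 1, 14 rose and the median was 0.56, and without WT silica array 2, 8 rose and it was 0.08. Their mean log2 ratio was 2.87 and 2.81 in RagKO silica, against 2.64 and 2.23 in WT silica. Of 19 alveolar macrophage markers 9 rose and 6 fell, with means of 3.54 and 3.74 in RagKO silica, against 3.32 and 3.31 in WT silica. Fcgr1, the high-affinity antibody receptor of monocytes, was higher by 1.69, and Lpl, a lipase of alveolar macrophages, by 1.80. Marco, a scavenger receptor of alveolar macrophages, was lower, at 6.38 and 6.39 in RagKO silica, against 7.07 and 7.08 in WT silica, a difference of -0.69 that was -0.41 after quantile normalization. The part of these cell type markers in the interferon and activation results was not tested.

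Genes of alternative macrophage activation, the state that interleukin-4 and interleukin-13 induce, were higher in RagKO silica. Of 29 measured, 18 rose and 4 fell, with a median of 0.58. Without WT silica array 2, 14 rose and the median was 0.38, and after quantile normalization it was 0.91. Arg1, which breaks down arginine, read 3.75 and 5.01 in RagKO silica, against 1.08 and 0.65 in WT silica. Fbp1, a gluconeogenesis enzyme, read 3.56 and 5.02 in RagKO silica, against 0.37 and 0.97 in WT silica. In both the RagKO silica arrays were over 1 log2 unit apart, and array 2 was the higher. Mmp12, the macrophage elastase, read 3.95 and 4.07 in RagKO silica, against 2.28 and 1.71 in WT silica. Clec7a, the beta-glucan receptor dectin-1, read 6.91 and 6.93 in RagKO silica, against 5.16 and 4.92 in WT silica. The eosinophil chemokine gene Ccl24 read -0.75 and 1.53 in RagKO silica, against -2.49 and -1.67 in WT silica, and lost its call when the spread was modelled with a trend and robust fitting (adjusted p = 0.0609). Its difference was 2.47, and 1.33 without RagKO silica array 2. Retnla, a classic marker of this state, did not pass, with 5.50 and 5.47 in RagKO silica, against 5.31 and 5.37 in WT silica, but passed after quantile normalization (0.64, adjusted p = 0.000418). The 4 that fell, named after their values were seen, were the transcription factor genes Klf4 (-1.56), Myc (-1.03), Stat6 (-0.41) and Egr2 (-0.28). The 2 probes of Stat6 were at -0.62 and -0.20 and did not share a call.

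Of 37 receptors that recognise particles or microbial patterns, for uptake or for signalling, 24 rose and 7 fell. Msr1, the class A scavenger receptor, read 2.03 and 2.19 in RagKO silica, against -0.32 and -0.49 in WT silica (5.719-fold, SE 0.11 on the log2 scale, adjusted p = 1.64e-07). Fcgr2b, the inhibitory antibody receptor, was higher by 2.26 and the lectin gene Clec5a by 1.52. In the inflammasome and interleukin-1 group 12 of 22 rose and 4 fell. Il1a read 3.42 and 3.81 in RagKO silica, against 2.28 and 1.95 in WT silica, while Il1b read 7.31 and 7.19 in RagKO silica, against 7.72 and 7.61 in WT silica. That difference of -0.42 passed, but not after quantile normalization (-0.15, adjusted p = 0.279). Nlrp3, the sensor that silica is known to trigger, was higher by 0.47 (adjusted p = 0.00408). Il18r1, which NK and T cells carry, fell by 1.65, and the alarmin gene Il33 rose by 2.28. Classical activation genes went both ways, with 8 of 15 higher and 6 lower. Tnf was higher by 0.92 and the acute-phase gene Saa3 read 1.69 and 2.30 in RagKO silica, against -0.29 and -1.69 in WT silica.

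Of 29 chemokine ligands, the secreted proteins that guide leukocyte migration, 17 rose and 5 fell. After saline 17 of the 29 had been higher in RagKO and 8 lower, against 37% and 29.2% over all genes. Ccl2, the main monocyte attractant, read 1.54 and 1.92 in RagKO silica, against -0.42 and -1.24 in WT silica. Cxcl5, a neutrophil attractant, read 1.02 and 0.51 in RagKO silica, against -1.61 and -1.50 in WT silica. Ccl5 and Xcl1, made largely by T and NK cells, fell by 2.84 and 2.01 on the log2 scale. Among 11 chemokine receptors 5 rose and 4 fell, against 33.7% and 26.4% over all genes. Cxcr3, the receptor of activated T and NK cells, read 0.86 and 0.60 in RagKO silica, against 3.87 and 3.52 in WT silica, and Ccr2, the monocyte receptor, 5.43 and 5.37 against 4.64 and 4.10. Of 23 interleukins and other cytokines 13 rose and 2 fell, with oncostatin M (Osm) higher by 1.75 and the lymphocyte attractant Il16 lower by 1.81. Inhba, the activin A subunit, read 3.03 and 3.21 in RagKO silica, against 0.85 and 0.16 in WT silica.

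**Figure D2:**
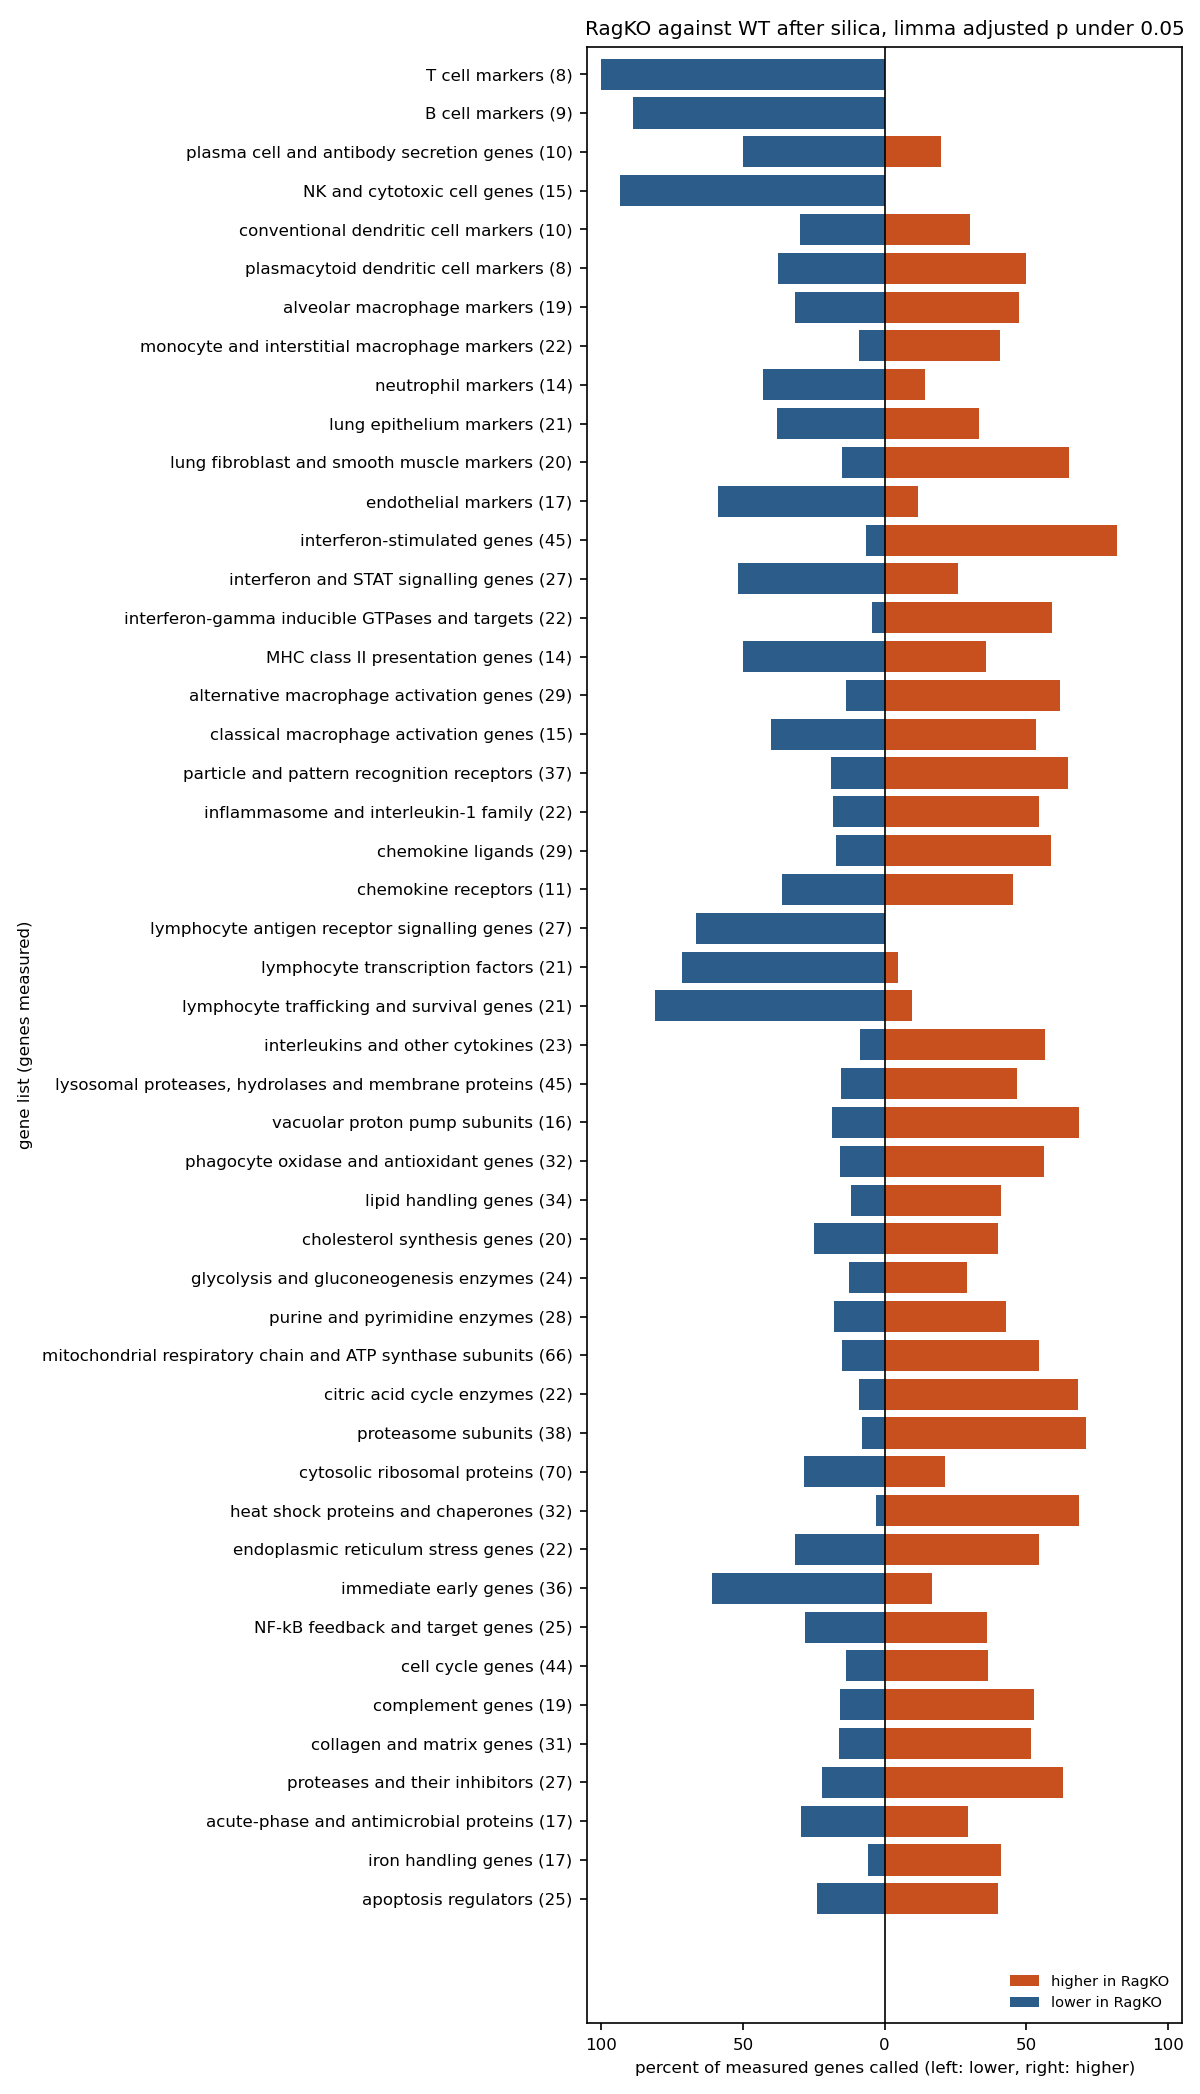
Percent of the measured genes of each list (rows, number measured in brackets) that were called higher (right) or lower (left) in RagKO silica than in WT silica by limma at an adjusted p of 0.05. Interferon-stimulated genes have 37 of 45 on the right, and NK genes have 14 of 15 on the left; over all genes 33.7% were higher and 26.4% lower.

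Subunits of the vacuolar proton pump, which acidifies lysosomes, were higher in 11 of 16 cases and lower in 3, with a median of 1.15. After saline 9 of the 16 had been higher in RagKO and 4 lower, with a median of 0.89, against 37% and 29.2% over all genes. The genotype difference was more positive after silica for 5 and more negative for 0, against 11% and 12.3% over all genes. Atp6v1c1 read 0.25 and 0.50 in RagKO silica, against -1.97 and -2.08 in WT silica. Atp6v1h read 0.65 and 0.36 in RagKO silica, against -1.42 and -1.62 in WT silica. Atp6v0d2, a subunit of macrophages and osteoclasts, was higher by 1.45. The 3 lower members, named after their values were seen, were Tcirg1 (-0.65), Atp6v0b (-0.42) and Atp6v0a1 (-0.30), and the probes of Atp6v0a1 disagreed. Of 45 lysosomal proteases, hydrolases and membrane proteins 21 rose and 7 fell. Lgmn, the protease legumain, was higher by 1.74 and Cd63 by 1.80, while Laptm5, a lysosomal protein of blood cells, read 1.58 and 1.39 in RagKO silica, against 4.13 and 4.34 in WT silica. The E-box TCACGTGA of lysosomal gene promoters, searched on both strands, was in 3 of 11 pump windows and 4 of 41 lysosomal windows, against 2.28% of tested genes and 1.12% of all genes with a window. The motif is named for lysosomal genes, so its share in these lists does not bear on their rises. Among all genes higher in RagKO silica 2.55% had it. With the match before the start, Ctsa (-0.03), Ctsd (0.14), Gla (0.10) and Mcoln1 (0.22) did not pass, and Atp6v1a (0.85) was higher. Of 32 phagocyte oxidase and antioxidant genes 18 rose and 5 fell, with the peroxiredoxin gene Prdx1 higher by 2.07 and Hmox1, which degrades heme, by 1.51.

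Genes of mitochondrial energy production and protein quality control were higher as groups. Of 66 respiratory chain and ATP synthase subunits 36 rose and 10 fell, with a median of 0.42, and of 22 citric acid cycle enzymes 15 rose and 2 fell, with a median of 0.89. Atp5l, an ATP synthase subunit, read 0.96 and 1.08 in RagKO silica, against -2.23 and -2.43 in WT silica. Suclg1, of succinyl-CoA synthetase, was higher by 1.76. Of 38 proteasome subunits 27 rose and 3 fell, with a median of 0.67. Psma6, of the catalytic core, read -0.46 and 0.01 in RagKO silica, against -2.63 and -3.10 in WT silica, while the interferon-inducible subunit Psmb10 did not pass (0.30, adjusted p = 0.0761). Of 32 heat shock proteins and chaperones 22 rose and 1 fell, with Pdia4, a protein disulfide isomerase, higher by 1.99. Cytosolic ribosomal proteins had no common direction, with 15 of 70 higher, 20 lower and a median of 0.01. After saline the genes called higher in RagKO were 33 of 66 respiratory, 16 of 22 citric acid cycle, 19 of 38 proteasome and 23 of 32 chaperone genes. Over all genes 37% were higher after saline.

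Immediate early genes, which cells switch on within minutes of a stimulus, were lower in 22 of 36 cases and higher in 6. After saline 24 of the 36 had been lower in RagKO and 8 higher, against 29.2% and 37% over all genes. Dusp2, a phosphatase of activated leukocytes, read 2.74 and 1.85 in RagKO silica, against 5.36 and 5.61 in WT silica. Junb read 1.23 and 0.56 in RagKO silica, against 2.60 and 2.83 in WT silica. Ier3 went the other way, with 0.98 and 1.06 in RagKO silica, against -0.60 and -1.08 in WT silica.

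Transcripts of structural lung cells differed by cell type. Of 20 fibroblast and smooth muscle markers 13 rose and 3 fell, with a median of 0.71, against 33.7% and 26.4% over all genes. After saline 14 of the 20 had been higher in RagKO and 3 lower, with a median of 1.56, against 37% and 29.2% over all genes. The genotype difference was more negative after silica for 11 and more positive for 1, against 12.3% and 11% over all genes. Aspn, a matrix proteoglycan, read 0.93 and 1.32 in RagKO silica, against -0.81 and -0.75 in WT silica, and the smooth muscle gene Tagln 1.17 and 1.22 against -0.38 and -0.59. Col1a1, a collagen I chain, was lower, at -2.43 and -3.18 in RagKO silica, against -1.49 and -1.91 in WT silica, a difference of -1.11 that was -0.73 without RagKO silica array 2. Its partner chain Col1a2 did not pass (-0.53, adjusted p = 0.072). Endothelial markers fell in 10 of 17 cases and rose in 2. Sox18, an endothelial transcription factor, read 1.98 and 1.45 in RagKO silica, against 3.46 and 3.58 in WT silica. Of 21 epithelial markers 7 were higher and 8 lower, against 33.7% and 26.4% over all genes. The share that was higher lay near that of all genes. Lamp3, of alveolar type II cells, was higher by 1.62, while Scgb1a1, the club cell secretoglobin, read 4.51 and 4.27 in RagKO silica, against 5.69 and 5.71 in WT silica. The median of the epithelial list was -0.11 and changed sign with quantile normalization (0.15), without WT silica array 2 (0.11) and without RagKO silica array 2 (0.0045). All 5 hemoglobin and other red cell genes were lower, with Hba-a1 at -1.56. Among proteases and inhibitors 17 of 27 rose (11 without WT silica array 2) and 6 fell, with Serpinb2, an inhibitor of plasminogen activators, higher by 2.90 and the metalloproteinase inhibitor gene Timp2 lower by 2.90.

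The saline arrays show which of these differences were there without silica. After saline 4292 genes were higher (37%) and 3388 lower (29.2%) in RagKO than in WT. Both exposures called 5602 genes, 5340 of them in the same direction and 262 in opposite directions. Because each exposure has its own arrays, a change of the genotype difference was tested as the interaction, the difference after silica minus that after saline. It was more positive after silica for 1274 genes (11%) and more negative for 1423 (12.3%). Without WT saline array 1 these counts fell to 759 and 890, and without array 2 to 755 and 892.

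**Figure D3:**
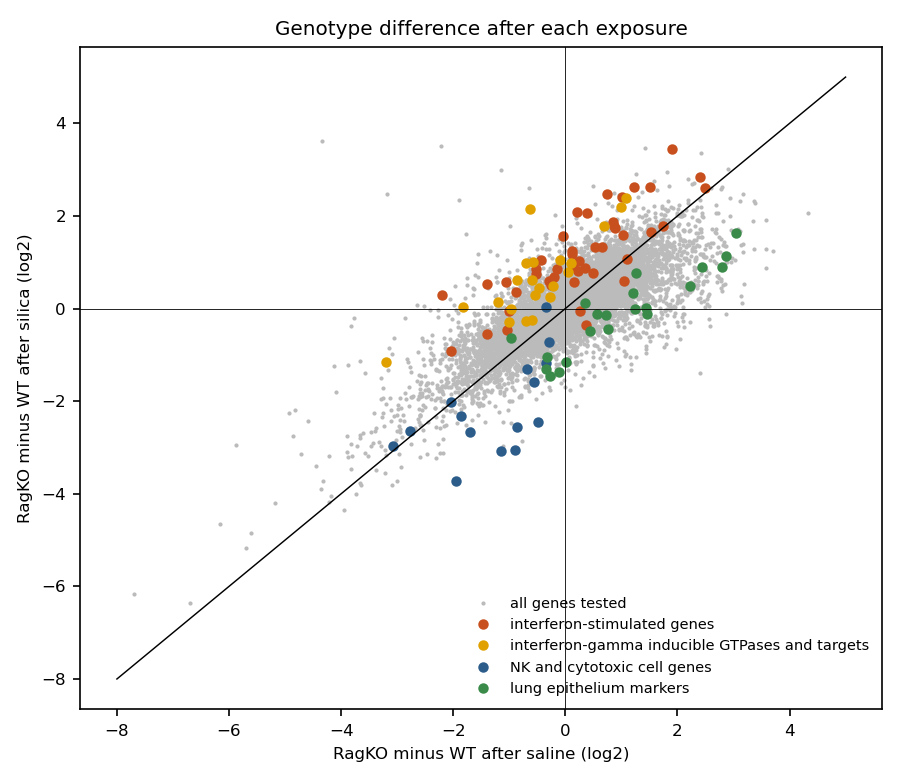
Genotype difference (RagKO minus WT, log2) after silica (vertical) against that after saline (horizontal) for the 11597 genes tested (grey) and 4 gene lists in colour; the diagonal marks equal differences. Interferon groups lie mostly above the diagonal, and NK genes and epithelium markers mostly below it.

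Gene groups differed in how silica changed the genotype gap. Of 45 interferon-stimulated genes the gap was more positive after silica for 32 (limma), against 11% over all genes. After saline 19 had been higher and 11 lower in RagKO, with a median of 0.24. Those saline shares lay near the 37% higher and 29.2% lower of all genes. For 18 of 29 alternative activation genes it was more positive, and after saline 16 had been lower in RagKO and 5 higher. MHC class II presentation genes had a more positive gap in 11 of 14 cases. Cd74, the class II chaperone, was lower in RagKO by 0.95 after silica and by 2.02 after saline, on the log2 scale. Epithelium markers went the other way, with a more negative gap for 18 of 21, and 15 of them had been higher in RagKO after saline. The median gap of the T cell markers was -2.24 after silica and -2.33 after saline, with 1 of 8 called in the interaction. For B cell markers 4 of 9 had a more positive gap, so their fall was smaller after silica. The means per array show where a gap moved. Interferon-stimulated genes averaged 2.03 and 1.89 in RagKO silica, 0.99 and 0.63 in WT silica, 0.77 and 0.81 in RagKO saline, and 0.54 and 0.54 in WT saline. Alternative activation genes averaged 2.64 and 2.87 in RagKO silica, 2.04 and 1.91 in WT silica, 1.59 and 1.59 in RagKO saline, and 2.36 and 2.38 in WT saline.

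**Figure D4:**
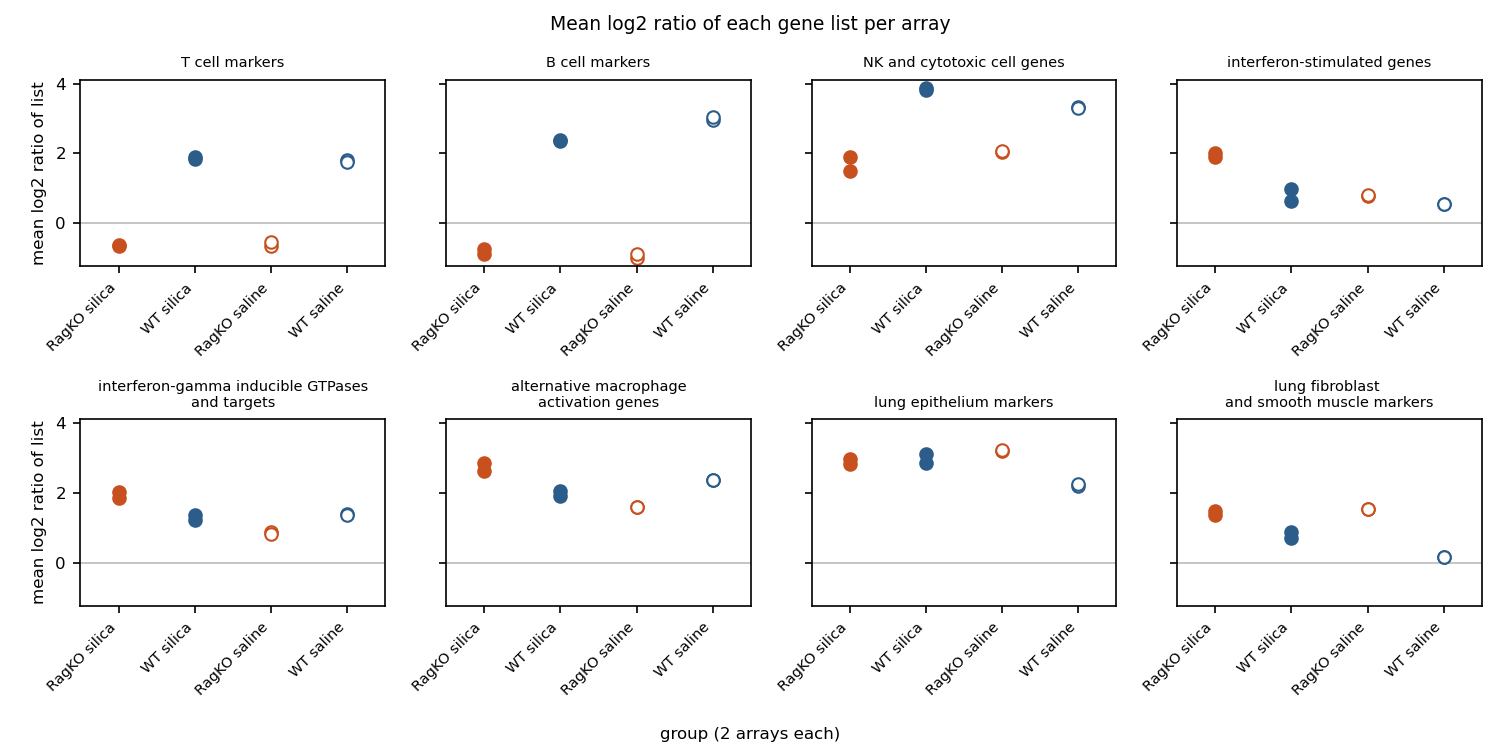
Mean log2 ratio to the reference over the measured genes of 8 lists (panels) on each of the 8 arrays, filled for silica and open for saline, orange for RagKO and blue for WT. T and B cell markers separate the genotypes under both exposures, while alternative activation genes are higher in RagKO after silica and higher in WT after saline.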

How the data were processed

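Each 2-colour Agilent array carried total RNA of lung interstitial leukocytes in Cy5, set against universal mouse reference RNA in Cy3, per the labels' protocols. The deposited table holds a log ratio for 16251 probes on 8 arrays. Its base is not stated and was inferred as log10, since read as log2 the largest ratio would be only 7.3-fold, and as log10 it is 737-fold; the direction, Cy5 over Cy3, follows the labels' dyes. The deposited log10 values were multiplied by 3.3219 to give log2. How background correction, normalization, centring and probe filtering were done is not given in the sources used here, so weak signals could not be told from background and depth has no equivalent. Column medians on the deposited log10 scale lay between -0.0725 and -0.0521, and no further normalization was applied. Between 15661 and 16119 probes per array had a value, and no columns were identical.

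The platform's gene table gave 14488 probes a single symbol, checked through RefSeq identifiers of GRCm38.p6, with 0 symbols changed as a result. Other probes were dropped, those with values on all 8 arrays were averaged per gene, and 849 genes were lost to missing values. Of 1478 genes with several probes, 163 had a probe called higher and another lower. Genes were fitted with limma 3.58.1 in R 4.3.3 as 4 group means over 8 arrays, with eBayes, Benjamini-Hochberg adjustment over all genes and a threshold of 0.05. Differences are RagKO minus WT, and the interaction is the difference after silica minus that after saline. The fit was also run on simulated arrays in which far fewer genes were changed than were called here. That run does not measure the false calls in these data.

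Genes named were the 20 largest rises and falls with arrays that did not overlap, the 10 largest interactions each way, up to 6 called and 2 not passed per list, a set of fixed genes and up to 4 receptor segments. Genes missing on a saline array (such as Cd3d) were named after their values were seen. The comparison, the 52 gene lists and the promoter motifs (4 searched; the octamer and the cAMP response element are not reported) were chosen with earlier results of these data known. Same-numbered arrays did not deviate together (r from -0.0728 to 0.111), so the numbers were not used as pairs. Alternatives were median centring, quantile normalization, fewer required arrays, the brightest probe, silica arrays alone, a trended robust fit, the replicate block and leaving out each array.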

Additional observations from a re-analysis of the deposited data

Results flagged for a closer look

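For 20 genes the genotype difference after silica differed from that after saline by the limma interaction, 10 in each direction, chosen as the largest. Values here are the difference after silica minus that after saline, on the log2 scale.

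Of the 10 more positive genes, 7 were higher in RagKO after silica and lower in RagKO after saline. Fbp1, the gluconeogenesis enzyme, changed by 7.96 (SE 0.52, adjusted p = 4.42e-05), with 3.62 after silica and -4.35 after saline. Arg1 changed by 5.72, Ccl24 by 5.65, the mucus-associated Clca1 by 4.23, Saa3 by 4.14, the chitinase-like Chil3 by 3.39 and Inhba by 3.26. Ccl8, a monocyte chemokine, changed by 3.57, with -0.21 after silica and -3.78 after saline, and Oosp1 by 3.44, with -0.38 and -3.81. Jchain changed by 2.94 and was lower in RagKO under both exposures.

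Of the 10 more negative genes, all were higher in RagKO after saline. The xenobiotic enzyme gene Cyp2a5 changed by -3.80, with -1.40 after silica and 2.40 after saline (SE 0.31, adjusted p = 8.01e-05). Mal2, an epithelial sorting protein, changed by -3.05, Maob, which oxidises amines, by -2.98, and Pon1 by -2.94. Bex2 changed by -2.87, Cytl1 by -2.84, Esm1, an endothelial proteoglycan, by -2.78, Gpx2 by -2.70, Ldhb by -2.69 and the keratin Krt23 by -2.66.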

How the results depend on the processing

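The counts of genes higher and lower in RagKO after silica stayed within 1.5 times of 3913 and 3057 under every alternative run, from 3270 to 3984 and from 2466 to 3257. Of the called genes 56.1% were higher, against 52.9% after median centring and 51.9% after quantile normalization. When each array was left out in turn, genes with a more positive interaction numbered 755 to 1239 and those with a more negative one 890 to 1313; the lowest counts came without a WT saline array. The lone array of a group was then assumed to vary like the other groups. With the replicate block the 4 counts were 3905, 3049, 1259 and 1410. From the silica arrays alone 3667 genes were higher and 2852 lower. Among the named genes that passed, 1 changed direction: the neutrophil gene Retnlg, at -0.49 as reported, was 0.0218 after quantile normalization (adjusted p = 0.884), and the cause was not tested. Of those that did not pass, 4 passed in the opposite direction under an alternative. With the brightest probe Pdia6 was -1.23, against 0.30 as reported, and Atp6v0e 0.73, against -0.16. Xist was 1.49 without RagKO silica array 1, against -0.38, and Eif2s3y 1.73 without array 2, against -0.59. Without a silica array 370 to 378 of the named genes kept their direction and side of the threshold. Limits are the 2 arrays per group, the unknown signal over background of weak probes, and probes of a gene that differed by a median of 0.54 on the log2 scale.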

Other observations

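Of 44 cell cycle genes 16 were higher and 6 lower in RagKO after silica, and the share that was higher lay near the 33.7% of all genes. After quantile normalization 11 were higher and 12 lower. Mki67, a marker of cycling cells, read -1.55 and -1.65 in RagKO silica, against -2.49 and -2.80 in WT silica, and Pcna, the DNA replication clamp, -0.79 and -0.75 against -2.56 and -2.54. The cycle inhibitor Cdkn1b was lower by 1.88 (a difference of -3.17 with the brightest probe) and the D-type cyclin gene Ccnd3 by 1.16. For 22 of the 44 the genotype difference was more positive after silica than after saline, against 11% over all genes. Of 19 complement genes 10 were higher and 3 lower, with C1s1 higher by 1.63 and C2 by 1.57, and the complement-restraining Cd55 lower by 1.43 (a difference of -2.41 with the brightest probe).

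Endoplasmic reticulum stress genes divided, with 12 of 22 higher and 7 lower. The chaperone gene Hyou1 read -0.80 and -0.41 in RagKO silica, against 1.21 and 1.21 in WT silica, while Manf read -0.39 and -0.01 against -1.36 and -1.70. Of 17 iron handling genes 7 were higher and 1 lower, and the share that was higher lay near the 33.7% of all genes. After saline 9 of the 17 had been higher and 2 lower, against 37% and 29.2% over all genes. The transferrin receptor Tfrc was higher by 1.04 after silica and the ferritin light chain Ftl1 lower by 0.54. Among purine and pyrimidine enzymes Pnp was higher by 2.95, and Impdh1, of guanine nucleotide synthesis, lower by 1.72.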
